A study of Mus musculus with 2 samples.

Results

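The miR-181 family comprises 6 microRNA (miRNA) genes that lie as pairs at 3 loci of the mouse genome: Mir181a-1 with Mir181b-1, Mir181a-2 with Mir181b-2, and Mir181c with Mir181d. Its members were the gene rows whose identifiers carry these symbols in the GENCODE M21 annotation, and all 6 were found among 2202 miRNA gene rows. They were measured by sequencing of small RNA (size range below 30, per the labels) from the gastrocnemius, a mixed calf muscle, of male B6CASTF1/J mice aged 25 days, with 2 libraries in 1 group. B6CASTF1/J mice are first-generation hybrids of the laboratory strain C57BL/6J and the wild-derived strain CAST/EiJ. No treatment or genetic change is given in the labels, and the design holds no second condition. Per the labels, the biological replicates are differently numbered males that nevertheless share 1 donor identifier. The spread between replicate 1 and replicate 2 may therefore be technical.

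A miRNA gene is transcribed as part of a longer RNA, from which a hairpin and then a duplex of a 5p and a 3p arm are cut. One arm of the duplex guides repression of messenger RNAs, mainly through pairing of its seed, bases 2 to 8. The miR-181 family is best known from lymphocytes, where it tunes the sensitivity of the T cell receptor in developing thymocytes, and it is also known from endothelium, from brain and from myoblast differentiation, where miR-181 represses the homeobox protein Hox-A11.

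The mature sequences are shown first because they bear on which of the 6 rows a read can be placed in. They come from RefSeq on GRCm38.p6, which held mature entries for 6 of 6 members. In the following lines, written 5′ to 3′, capitals mark the seed of each distinct 5p arm.
miR-181a-5p, from Mir181a-1 and Mir181a-2: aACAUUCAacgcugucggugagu
miR-181b-5p, from Mir181b-1 and Mir181b-2: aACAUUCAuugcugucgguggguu
miR-181c-5p, from Mir181c: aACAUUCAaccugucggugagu
miR-181d-5p, from Mir181d: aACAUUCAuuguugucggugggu

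The 6 genes thus encode 4 distinct 5p arms with 1 shared seed, and no other mature miRNA in the RefSeq table carried that seed. With positions counted from 1 at the 5′ end and the first-named arm's base first, miR-181a-5p and miR-181b-5p differ by A9U, C10U and A21G and by 1 base of length. miR-181b-5p and miR-181d-5p differ by C12U and by 1 base of length, and miR-181c-5p is 1 edit away from miR-181a-5p. The closest 5p arms therefore lie on different chromosomes, whereas the partners miR-181c-5p and miR-181d-5p are 5 edits apart.

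The 3p arms separate the copies, since all 6 are distinct. In the next lines capitals mark the bases that differ between the copies of miR-181a and, below them, between the copies of miR-181b.
miR-181a-1-3p: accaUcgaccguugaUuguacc
miR-181a-2-3p: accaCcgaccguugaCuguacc
miR-181b-1-3p: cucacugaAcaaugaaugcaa
miR-181b-2-3p: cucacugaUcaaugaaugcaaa

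The miR-181a copies differ by U5C and U16C, the first of which lies in the seed of the 3p arm. The miR-181b copies differ by A9U outside the seed and by 1 base of length. A full 3p arm is identical to 1 copy, while a read of exactly the shared 5p arm matches both.

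The rows hold only reads placed at 1 locus. Multimapping reads, which enter no row, took 69.8% of replicate 1 and 71.8% of replicate 2, and the gene counts left were 1491341 and 2028332. How many of the reads left out came from miR-181 genes was not analysed here, and a row does not separate its 5p from its 3p reads. Levels are given as CPM, gene counts scaled to a library total of 1000000, and all 6 members had counts in both libraries. The labelled tissue carried Mir206, a skeletal muscle miRNA gene, at 49955 ± 4826 CPM (SD, n = 2), and 0 of 10 muscle miRNA genes were without counts. That list was uneven, since Mir1b had 1 and 2 counts and Mir133a-2 had 1 and 8 in replicates 1 and 2. Mir1a-1, Mir133b and Mir133a-1 averaged 10.7, 16.1 and 16.6 CPM, and the remaining genes ranged from 158 CPM (Mir208b) to 750 CPM (Mir486). These values, too, count only reads placed at 1 locus and are not levels of mature miRNA.

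The family as a whole had 2532 counts in replicate 1 and 3557 in replicate 2. This was 1698 and 1754 CPM, or 0.173 ± 0.00395% of gene counts (SD, n = 2). The summed level thus differed little between the libraries, although single members ranged from 3.07 to 674 CPM on average.

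Mir181b-2 (chromosome 2, 38853830 to 38853918, plus strand, mm10) had the highest level, with 1086 counts and 728 CPM in replicate 1 (exact 95% Poisson interval 686 to 773) and 1259 counts and 621 CPM in replicate 2 (587 to 656). Its mean was 674 ± 76.0 CPM (SD, n = 2), rank 74 among all miRNA genes. Its partner Mir181a-2 (38852735 to 38852810) had 43 counts and 28.8 CPM in replicate 1 and 89 counts and 43.9 CPM in replicate 2, a mean of 36.4 ± 10.6 CPM. Both lie on the strand opposite to Nr6a1, an orphan nuclear receptor gene, within an intron of it, and 1019 bases separate them. Mir181b-2 also overlaps an exon of the gene model Gm44144 on the opposite strand.

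At the locus on chromosome 8 the partners stood at similar levels. Mir181d (84178716 to 84178787, minus strand) had 598 counts and 401 CPM in replicate 1 and 920 counts and 454 CPM in replicate 2, a mean of 427 ± 37.2 CPM. Mir181c (84178873 to 84178961, minus strand) had 531 counts and 356 CPM in replicate 1 and 847 counts and 418 CPM in replicate 2, a mean of 387 ± 43.5 CPM. They lie 85 bases apart in an intron of Nanos3, a gene of germ cell maintenance, on its strand. Both arms of Mir181c and of Mir181d occurred in identical form at no other gene of the RefSeq table.

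On chromosome 1 the partners were far apart in counts of reads placed at 1 locus. Mir181a-1 (137966455 to 137966541, plus strand) had 270 counts and 181 CPM in replicate 1 and 435 counts and 214 CPM in replicate 2, a mean of 198 ± 23.6 CPM. Mir181b-1 (137966639 to 137966718, plus strand) had 4 counts and 2.68 CPM in replicate 1 and 7 counts and 3.45 CPM in replicate 2. Its mean was 3.07 ± 0.544 CPM. Its level lay close to the limit that a count of 0 allows, 2.01 CPM in replicate 1 and 1.48 CPM in replicate 2, and its exact intervals of 0.731 to 6.87 and 1.39 to 7.11 CPM overlapped. The hairpins lie 97 bases apart within introns of the non-coding gene Gm4258, and both overlap an exon of the long non-coding gene A430106G13Rik on the same strand, Mir181a-1 in part.

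**Figure D1:**
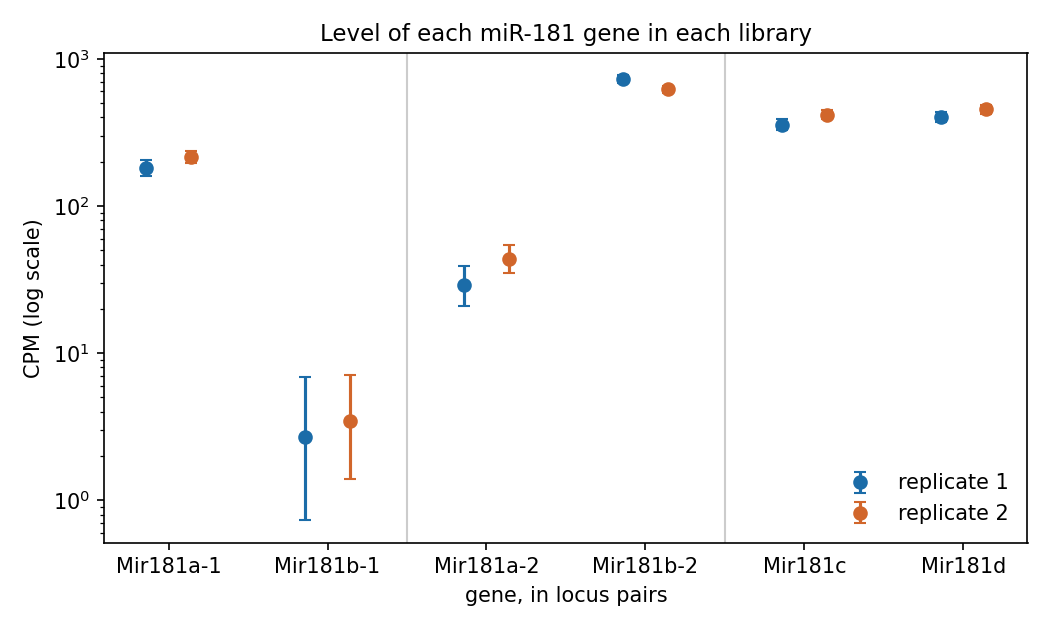
CPM on a log scale of each miR-181 gene in replicate 1 and replicate 2, with exact 95% Poisson intervals as bars and vertical lines between the 3 loci. Mir181c and Mir181d sit side by side, whereas the partners at the other loci lie over 10-fold apart in both libraries. Only reads placed at 1 locus are counted.

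The order from Mir181b-2 through Mir181d, Mir181c, Mir181a-1 and Mir181a-2 to Mir181b-1 was the same in both libraries. Divided by hairpin length, the mean levels kept that order, at 758, 593, 435, 227, 47.8 and 3.83 CPM per 100 bases. The hairpins are 72 to 89 bases long, so this division could change little and is no separate support for the order. Mir181d and Mir181c were the closest neighbours. Their mean levels lay 40.5 CPM apart against summed SDs of 80.7 CPM, and their intervals overlapped in each library, but Mir181d was the higher in both. All other neighbours had library values that did not overlap. Their mean CPM differed from 1.58-fold between Mir181b-2 and Mir181d to 11.9-fold between Mir181a-2 and Mir181b-1. Mir181c and Mir181d share no mature arm with another gene, whereas each other member shares 1 arm with its copy. Reads of exactly that shared arm enter no row. The order and the fold differences therefore rank only the reads that could be placed and are no ranking of mature miRNA.

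Within the loci the balance of partners differed. On the log2 scale of counts with 0.5 added, Mir181a-1 over Mir181b-1 was 5.91 in replicate 1 and 5.86 in replicate 2, or 60.1-fold and 58.1-fold. Mir181a-2 over Mir181b-2 was -4.64 in replicate 1 and -3.81 in replicate 2. Mir181c over Mir181d was -0.17 in replicate 1 and -0.12 in replicate 2, a mean of -0.15 ± 0.04 (SD, n = 2), so this small difference had the same sign in both libraries. An SD over 2 libraries can fall below counting error, so it does not settle whether the partners differed. By the intervals given below, replicate 2 included an equal split and replicate 1 ended just short of it. Among reads placed at 1 locus, the miR-181a gene thus led its pair on chromosome 1 and the miR-181b gene led its pair on chromosome 2, in both libraries. A read of exactly the 5p arm of these genes matches both copies and enters no row. The gaps therefore describe only the reads that could be placed and are not ratios of mature miRNA. Mir181a-1 held 98.5% of the counts of its pair in replicate 1 (exact 95% binomial interval 96.3 to 99.6) and 98.4% in replicate 2 (96.8 to 99.4). Mir181c held 47.0% of the counts of its pair in replicate 1 (44.1 to 49.99) and 47.9% in replicate 2 (45.6 to 50.3).

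The hairpins of the copies are shown because the copies share the 5p arm and yet differ widely in counts. Capitals mark the unbroken run around the 5p arm that is identical in both copies (RefSeq, GRCm38.p6, whose hairpin intervals equalled the GENCODE gene intervals for 5 of 5 members held).
Mir181a-1: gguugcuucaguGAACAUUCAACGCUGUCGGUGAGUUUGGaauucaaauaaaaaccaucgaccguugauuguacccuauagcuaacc
Mir181a-2: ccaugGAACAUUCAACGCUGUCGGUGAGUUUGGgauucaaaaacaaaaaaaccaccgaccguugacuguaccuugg
Mir181b-1: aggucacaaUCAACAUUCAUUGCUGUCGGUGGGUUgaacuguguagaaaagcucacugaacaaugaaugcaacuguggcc
Mir181b-2: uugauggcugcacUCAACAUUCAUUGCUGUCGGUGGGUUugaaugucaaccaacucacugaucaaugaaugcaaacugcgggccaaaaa

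The miR-181a copies share 28 bases, which run 4 bases past the annotated 3′ end of the 5p arm to the difference A28G. The miR-181b copies share 26 bases, and the run ends with the arm itself, so the base directly after the annotated arm already differs (G25U). In both notations positions are counted from 1 at the 5′ end of the 5p arm and the chromosome 1 copy comes first. A read of the miR-181b 5p arm that extends 1 base along its hairpin therefore matches 1 copy, whereas a read of the miR-181a 5p arm with the same extension still matches both. Read ends are not in the count files, so how many counted reads extended past the arm was not tested.

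The locus of Mir181c and Mir181d held 44.6% of family counts in replicate 1 (exact 95% binomial interval 42.6 to 46.6) and 49.7% in replicate 2 (48.0 to 51.3), a mean of 47.1 ± 3.60% (SD, n = 2). The locus of Mir181a-2 and Mir181b-2 held 44.6% in replicate 1 (42.6 to 46.6) and 37.9% in replicate 2 (36.3 to 39.5). The locus of Mir181a-1 and Mir181b-1 held 10.8% in replicate 1 (9.64 to 12.1) and 12.4% in replicate 2 (11.4 to 13.6). The first 2 loci tied at 1129 counts in replicate 1, and the chromosome 8 locus was ahead in replicate 2. These shares count reads placed at 1 locus and are not shares of mature miR-181.

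**Figure D2:**
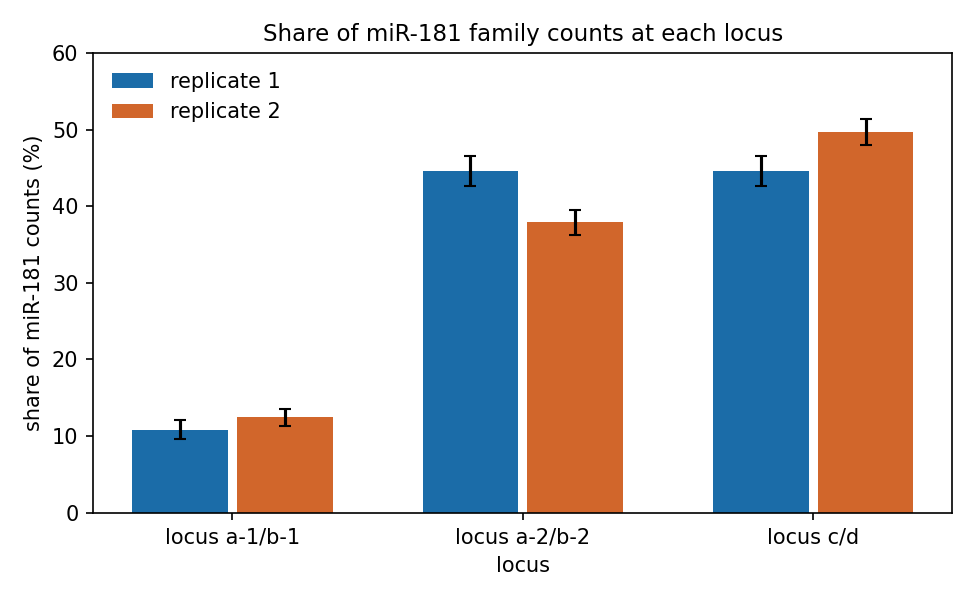
Percentage of all miR-181 counts at each of the 3 loci in replicate 1 and replicate 2, with exact 95% binomial intervals. The chromosome 1 locus holds 10.8% and 12.4%, and the intervals of the chromosome 2 locus do not overlap between the libraries.

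Between the libraries, Mir181b-2 was higher in replicate 1 while Mir181c and Mir181d were lower. The log2 ratio of replicate 1 over replicate 2, after TMM scaling, was 0.22 for Mir181b-2 (exact 95% interval 0.10 to 0.34, binomial test adjusted p = 0.000851). It was -0.24 for Mir181c (-0.40 to -0.08, binomial test adjusted p = 0.00842) and -0.19 for Mir181d (-0.34 to -0.04, binomial test adjusted p = 0.0368). Mir181a-1 at -0.25, Mir181a-2 at -0.62 and Mir181b-1 at -0.37 did not pass, with adjusted p = 0.0563, 0.0562 and 0.847 in the exact binomial test. Thus 1 of 6 members was higher and 2 were lower in replicate 1, where 18.5% and 19.8% of 313 tested genes were called in those directions and 38.3% in either. The members' median ratio was -0.25, beside -0.05 over all tested genes. Each direction was the same under all 6 alternative settings tried. The binomial test holds counting error only and compares these libraries. With the spread between the libraries added, 0 of 6 members passed (adjusted p = 1 for each, edgeR exact negative binomial test), as did 0 of 313 genes, with 15 at an unadjusted p under 0.05. Since this spread comes out of the libraries being compared, the miss does not show that the members were alike.

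**Figure D3:**
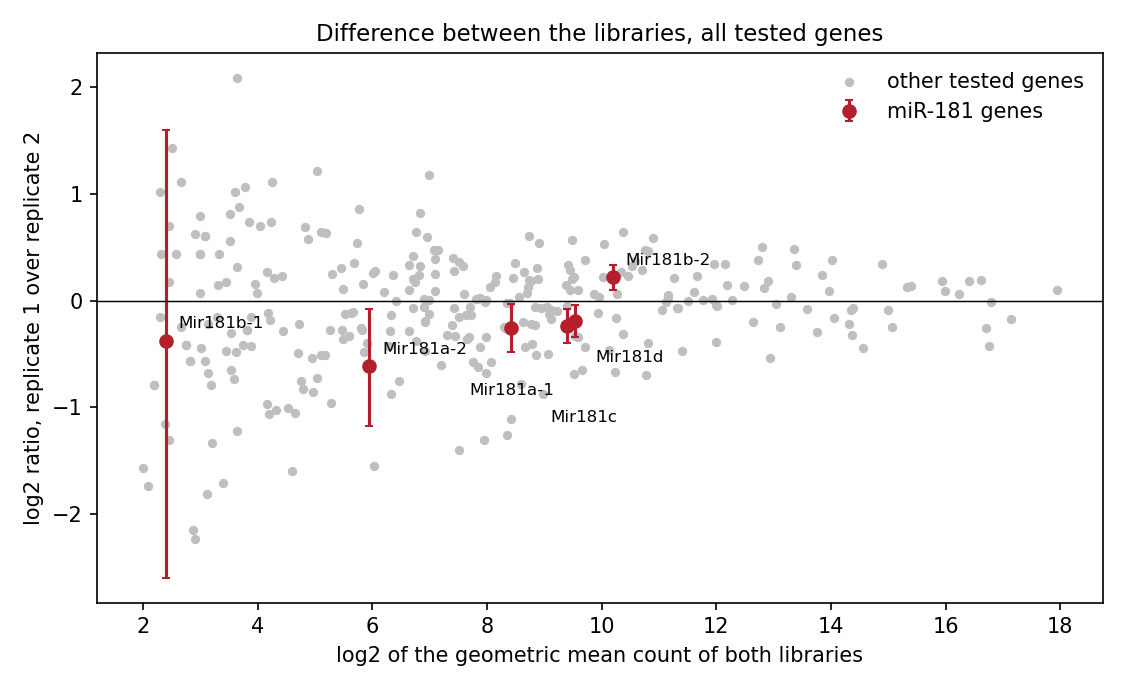
Log2 ratio of replicate 1 over replicate 2 against the log2 geometric mean count for 313 tested miRNA genes, with miR-181 genes in red and their exact 95% intervals. Mir181b-2 lies above 0 and the other 5 members below it, within the range of other genes of similar count.

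Marker genes of blood and vessel cells also differed between the libraries. The 6 leukocyte miRNA genes, led by the lymphocyte gene Mir150 at 1011 ± 237 CPM, had summed levels of 4120 and 3237 CPM in replicates 1 and 2, and 4 of them were higher and 2 lower in replicate 1 by the binomial test. The endothelial gene Mir126a stood at 78275 CPM in replicate 1 and 87525 CPM in replicate 2 and was lower in replicate 1 by the same test. The 9 neuronal genes summed to 1480 and 1554 CPM, led by Mir128-1 at 1227 ± 47.9 CPM, with 1 of 3 tested genes lower in replicate 1, and the defining Mir124a genes and 2 of the Mir9 genes had no count. Of 8 tested skeletal muscle genes, 3 were higher and 2 lower in replicate 1. These counts stand beside 38.3% of all tested genes called in either direction by the binomial test, and no marker gene passed the negative binomial test. The 2 erythroid genes, led by Mir451a at 212 ± 109 CPM, had summed levels of 174 and 355 CPM in replicates 1 and 2, and both were lower in replicate 1. The part of these cell types in the miR-181 values was not tested, and in a bulk sample fewer cells of a type and less RNA per cell cannot be told apart.

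The split between copied and single genes was set beside that of 3 other families with copied members. In the miR-181 family, the 4 genes with a mature arm that recurs at another gene had a median of 117 CPM and a range of 3.07 to 674 CPM, and the 2 genes without one had a median of 407 CPM. In the miR-26, miR-29 and miR-30 families, the genes with a recurring arm were lower than the genes classed as without one, at 99.5 CPM or less against 37560 CPM for miR-26, 11.7 CPM or less against at least 302 CPM for miR-29, and 162 CPM or less against at least 8030 CPM for miR-30. Mir30b and Mir30d were not placed in either class. With genes classed instead by a stretch of 20 bases shared with another miRNA gene on either strand, the miR-30 classes overlapped. Genes with such a stretch reached 8030 CPM (Mir30e) and the others went down to 230 CPM (Mir30b). Such a stretch need not mark a copy, since Mir30e and Mir29c had one without a recurring mature arm. By the binomial test between the libraries, 2 of 3 miR-26 genes were higher in replicate 1, and 2 of 4 miR-29 genes and 4 of 6 miR-30 genes were lower, beside 18.5% of all tested genes called higher and 19.8% called lower, and none passed the negative binomial test. In the miR-181 family the classes overlapped under both definitions, since the 5p arm of Mir181b-2 recurs at Mir181b-1 and its level exceeded those of Mir181c and Mir181d in both libraries. Every level here counts only reads placed at 1 locus. A read of exactly a recurring arm matches more than 1 gene and enters no row. Genes with such an arm lose these reads by construction, so the comparison does not show that copied genes yield less mature miRNA. Over a few genes, it is a description with no test.

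**Figure D4:**
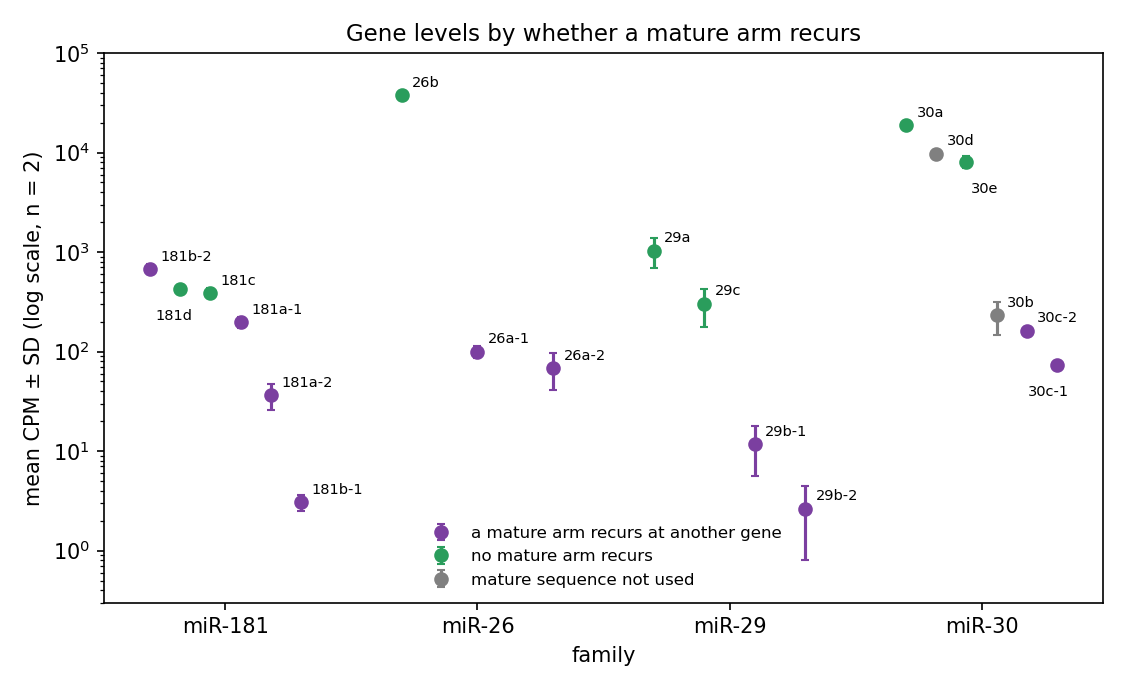
Mean CPM on a log scale (bars, SD over 2 libraries) of each gene of the miR-181, miR-26, miR-29 and miR-30 families, coloured by whether a mature arm recurs at another gene. Mir181b-2, with a recurring arm, lies at the top of its family, at 674 CPM.

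By the summed absolute difference in log2(CPM + 1) over 2 libraries, the genes most like Mir181b-2 in level were Mir154, Mir486 and Mirlet7c-2, at differences of 0.17, 0.30 and 0.31. Mir154 had 730 CPM in replicate 1 and 696 CPM in replicate 2. With 2 libraries this likeness rests on level alone.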

How the data were processed

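The authors deposited, per library, raw read counts per miRNA gene on mm10 with GENCODE M21, per the deposited file descriptions. The sources used here name no aligner or trimming. Of 3 count columns without header, the values show counts without strand, on the gene's strand (used here) and on the opposite strand, where all members had 0. The 4 summary rows entered no test, and they entered library sizes only in the alternative that uses totals of all reads. In replicates 1 and 2, 69.8% and 71.8% of reads were multimapping, 8.11% and 5.99% unaligned, and 2.21% and 1.64% outside annotated miRNA genes. How CAST alleles aligned was not analysed here.

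CPM used gene counts as denominator. Genes whose counts over both libraries summed to at least 10 entered an exact two-sided binomial test with TMM effective library sizes (edgeR 4.0.16, R 4.3.3, scipy 1.17.1) and Benjamini-Hochberg adjustment at 0.05. With 1 group, no quasi-likelihood contrast exists. Alternatives were DESeq2 1.42.0 size factors, unscaled totals, totals of all reads, no filter, the column without strand, other pseudocounts and edgeR's exact negative binomial test with a biological coefficient of variation of 18.0% over 267 genes. The binomial step was tested on simulated data with counting error alone and known library sizes. That simulation does not cover the added spread between these libraries. Intervals and floors (3 counts) hold counting error alone and treat each read as a separate molecule, which PCR duplicates are not. Recurrence of arms was judged by identical mature sequences in the RefSeq table, to which 1018 of 2201 gene names matched.

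The members and lists were chosen with earlier results of these data known. Named genes were the 6 members, the 3 genes nearest in level to the highest member, the comparison families and the leading gene of each marker list. Outside this rule, further genes of the skeletal muscle and neuronal lists were named to show how uneven those lists were.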

Additional observations from a re-analysis of the deposited data

How the results depend on the processing

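The number of genes differing between the libraries was 120 of 313 tested and stayed between 110 and 120 under 4 alternatives. The number tested varied, with 110 of 570 called without a filter and 110 of 287 in the column without strand. With edgeR's exact negative binomial test, 0 of 313 were called. Under that test Mir181b-2 (0.22), Mir181c (-0.24) and Mir181d (-0.19) no longer passed. Mir181d also missed the threshold with unscaled totals (-0.18, binomial test adjusted p = 0.0502) and without a filter (-0.19, binomial test adjusted p = 0.0665), within a range of 0.00821 to 1 over 6 alternatives. Mir181a-1 and Mir181a-2 passed in the column without strand (-0.27 and -0.64) and with totals of all reads (-0.29 and -0.66). Their adjusted p ranged from 0.0234 to 1 and from 0.0342 to 1 over these binomial and edgeR alternatives. Mir181a-1 over Mir181b-1 was 6.02 with a pseudocount of 0 and 5.76 with 1, because Mir181b-1 had 4 and 7 counts.

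The CPM level depends on the denominator by construction. Scaled to all reads in place of gene counts, the means were 40.1 for Mir181a-1, 0.622 for Mir181b-1, 7.39 for Mir181a-2, 136 for Mir181b-2, 78.4 for Mir181c and 86.6 for Mir181d, and 40.7, 144 and 165 for the loci on chromosomes 1, 2 and 8. In the column without strand, with the same member counts over a smaller total, they were 265, 4.10, 48.6, 903, 518 and 572 CPM, and 269, 951 and 1089 CPM for the loci. Leaving out a replicate gives the value of the other library, stated for each member above, which says nothing about stability and leaves no test between libraries. Classing genes by 20 shared bases gave the same medians for miR-181 and miR-26. The medians of genes with and without such a stretch became 11.7 and 1033 CPM for miR-29 and 162 and 9756 CPM for miR-30. No paired analysis was possible because the design has 1 group. The low count of reads placed at 1 locus limits Mir181b-1 most, which passed the threshold in 0 of 6 alternatives. Depth and the loss of multimapping reads cannot be told apart in that count.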

Other observations

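Over the 1018 of 2201 gene names that matched RefSeq, 94 had a mature arm that recurs at another gene. Of these, 34.0% (32) reached 10 counts or more in each library, where the median was 116 CPM. Unmatched names, Mir30d at 9756 CPM among them, are in neither class. Of 924 gene names with no recurring arm, 22.3% (206) did, with a median of 203 CPM. These are values over genes, with no test, and the miR-181 genes are among them. Reads of exactly a recurring arm enter no row, so the medians do not compare mature miRNA between the classes.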
